A study of Mus musculus with 16 samples.

Results

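The histone deacetylases measured here are the enzymes that compound 4b is meant to inhibit. Every probe whose symbol is Hdac1, Hdac2, Hdac3, Hdac4, Hdac5, Hdac6, Hdac7, Hdac8, Hdac10 or Hdac11 was taken, which gave 13 probes for 10 genes, of 25697 probes for 16593 named genes on the array. Class I holds 4 of these probes (Hdac1, Hdac2, Hdac3, Hdac8), class IIa 5 probes for 3 genes (Hdac4, Hdac5, Hdac7), class IIb 3 probes for 2 genes (Hdac6, Hdac10) and class IV 1 probe (Hdac11). RNA came from gastrocnemius muscle of 16 B6C3F1/J mice, with 1 Illumina bead array per animal. The mice were wild type (wt) or carried the N17182Q transgene (Tg), an N-terminal piece of mutant huntingtin with a long polyglutamine tract, driven by a prion promoter that is not specific to muscle. Of the wild-type mice, 4 received vehicle and 5 received 4b. Of the transgenic mice, 4 received vehicle and 3 received 4b. The labels used here state no dose, length of treatment, age or sex, and each label carries its own animal number.

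Histone deacetylases remove acetyl groups from lysines of histones and other proteins. The class I enzymes Hdac1 and Hdac2 work in the nucleus inside the Sin3, NuRD, CoREST and MiDAC complexes, Hdac3 works with the NCoR and SMRT corepressors, and Hdac8 acts on the cohesin subunit Smc3. The class IIa enzymes have little catalytic activity of their own. They bind MEF2 transcription factors, and kinases such as CaMK and PKD send them out of the nucleus to 14-3-3 proteins. In muscle, Hdac4 and Hdac5 are known for their part in the response to loss of nerve input, upstream of myogenin and the acetylcholine receptor genes. Hdac6 is a cytoplasmic deacetylase of tubulin and Hsp90, Hdac10 deacetylates polyamines, and Hdac11 is the single class IV enzyme. Compound 4b is known as an inhibitor with a preference for Hdac1 and Hdac3. It acts on the proteins, so the arrays, which measure RNA, do not show whether the enzymes were inhibited.

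All 13 probes passed the detection filter, which asks for 3 or more arrays with a detection p-value under 0.05, along with 13706 probes in all. Of the 13, 10 were detected on 16 of 16 arrays. The other probes were dim: Hdac8 was detected on 10 arrays and each of the 2 Hdac6 probes on 8. Hdac8 was detected on 3 of 4 and 4 of 5 arrays of wild-type mice given vehicle and 4b, and on 2 of 4 and 1 of 3 arrays of transgenic mice. Hdac6 probe 1 went the other way, with 1 of 4 and 1 of 5 wild-type arrays against 3 of 4 and 3 of 3 transgenic arrays, so that it passed the filter only through the transgenic mice. The remaining class IIa gene, Hdac9, has 2 probes, both detected on 0 arrays, with a lowest detection p-value of 0.154. Levels below are log2 intensities after background correction and quantile normalization, and levels of different probes were not compared with each other. In bulk muscle, fewer cells of a type and less RNA per cell cannot be told apart.

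**Figure D1:**
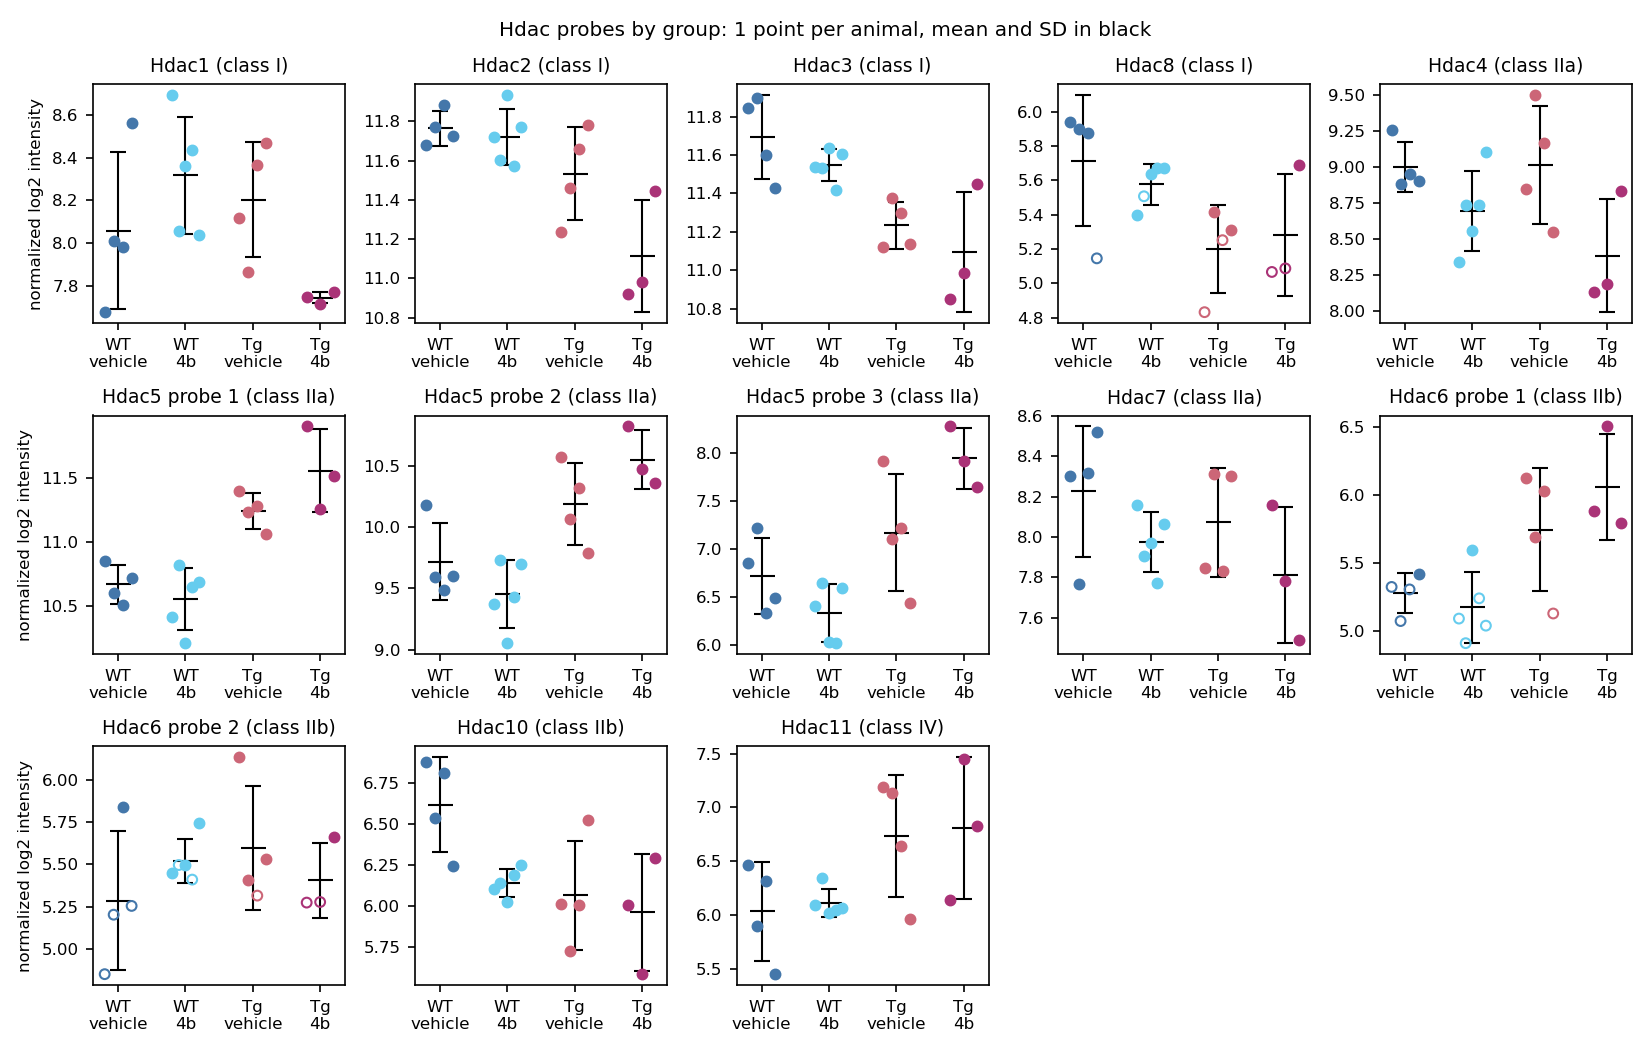
Normalized log2 intensity (vertical axis, with its own range in each panel) of the 13 Hdac probes in the 4 groups, where WT is wild type and Tg is N17182Q transgenic. Each point is 1 animal, filled where the detection p-value was under 0.05 and open otherwise, and black bars give the mean and SD. The 7 transgenic animals lie above the 9 wild-type animals for Hdac5 probe 1.

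The tissue and the transgenic animals can be placed with a few other probes. All 11 markers of fast skeletal muscle were detected on 16 of 16 arrays. Prnp, the gene whose promoter drives the transgene, read 13.32 to 13.77 in wild-type mice. It read 14.27 to 15.09 in transgenic mice given vehicle and lower, 13.99 to 14.11, in those given 4b. Marker scores are given here as the mean log2 difference from wild-type mice with vehicle. The fibroblast and matrix score ran from -0.77 to 0.51 in wild-type mice given vehicle, from 0.20 to 1.45 in those given 4b, from -2.38 to -0.52 in transgenic mice given vehicle and from -2.07 to -1.64 in those given 4b. In the comparison of genotypes averaged over treatments 6 of its 9 genes fell and 0 rose. The fast muscle score ran from -0.10 to 0.048 in wild-type and from -0.40 to -0.070 in transgenic mice. The lymphocyte score, from 11 tested markers of which 0 were called, was above 0.5 on 6 arrays spread over all 4 groups. These were replicate 4 of wild-type mice given vehicle, replicates 1 and 3 of wild-type mice given 4b, replicate 4 of transgenic mice given vehicle, and replicates 1 and 2 of transgenic mice given 4b. Cd4 and Cd8a were detected on 0 arrays.

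The first question was whether the family differs between transgenic and wild-type muscle. Averaged over treatments, 8 of the 13 probes, for 6 genes, differed at an adjusted p under 0.05 in limma's moderated test, where 32.2% of all probes did. The count includes Hdac6 probe 1, which the filter kept only through the group where it reads higher. Hdac5 rose on all 3 of its probes, by between 0.78 and 1.03 log2 units. Hdac11 and 1 of the 2 Hdac6 probes were also higher, and the class I genes Hdac2, Hdac3 and Hdac8 fell. Of all probes 17.9% rose and 14.3% fell, so that 55.6% of the calls were rises, a share that was 68.3% when each array was scaled to its median in place of quantile normalization. The median over the 13 Hdac probes was -0.15, and the median over all probes was 0.01.

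Hdac5, a class IIa enzyme that represses MEF2 targets in muscle, gave the clearest separation. Probe 1 read 10.85, 10.60, 10.51 and 10.72 in wild-type mice given vehicle, and 10.42, 10.82, 10.21, 10.65 and 10.69 in wild-type mice given 4b. It read 11.40, 11.23, 11.28 and 11.07 in transgenic mice given vehicle, and 11.90, 11.26 and 11.52 in transgenic mice given 4b. Every transgenic animal was above every wild-type animal, and of all probes 5.48% separated the genotypes without overlap in either direction. The same held before normalization, with deposited intensities of 1157 to 2018 in wild-type mice and 2442 to 4780 in transgenic mice. The order of the groups was transgenic with 4b (11.56 ± 0.33, SD, n = 3), transgenic with vehicle (11.25 ± 0.14, n = 4), wild type with vehicle (10.67 ± 0.15, n = 4) and wild type with 4b (10.56 ± 0.24, n = 5). No pair of neighbours in this order passed the test. The averaged genotype difference was 0.79 ± 0.12 (SE; limma adjusted p = 0.000272), a 1.73-fold rise whose size exceeded that of 87.4% of all probes.

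The other Hdac5 probes went the same way with more overlap. Probe 2 read 10.18, 9.59, 9.49 and 9.61 in wild-type mice given vehicle and 9.37, 9.74, 9.05, 9.43 and 9.70 in those given 4b, against 10.57, 10.07, 10.32 and 9.79 in transgenic mice given vehicle and 10.82, 10.48 and 10.36 in those given 4b. Probe 3 read 6.85, 7.22, 6.33 and 6.49, then 6.40, 6.64, 6.02, 6.02 and 6.59, then 7.92, 7.11, 7.21 and 6.43, and then 8.27, 7.91 and 7.64 in the same order of groups. On both probes replicates 2 and 4 of the transgenic mice given vehicle lay within the wild-type range, as did replicate 3 on probe 3, and replicate 1 was the highest of its group. The averaged differences were 0.78 ± 0.15 (SE; limma adjusted p = 0.0013) for probe 2 and 1.03 ± 0.20 (limma adjusted p = 0.0015) for probe 3. For probe 3 the mean deposited intensities were only 194, 179, 269 and 391 in the same order of groups. In the platform annotation probe 1 belongs to another transcript record of Hdac5 than probes 2 and 3. The 3 probes measure RNA of 1 gene in the same animals and are not separate replicates.

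**Figure D2:**
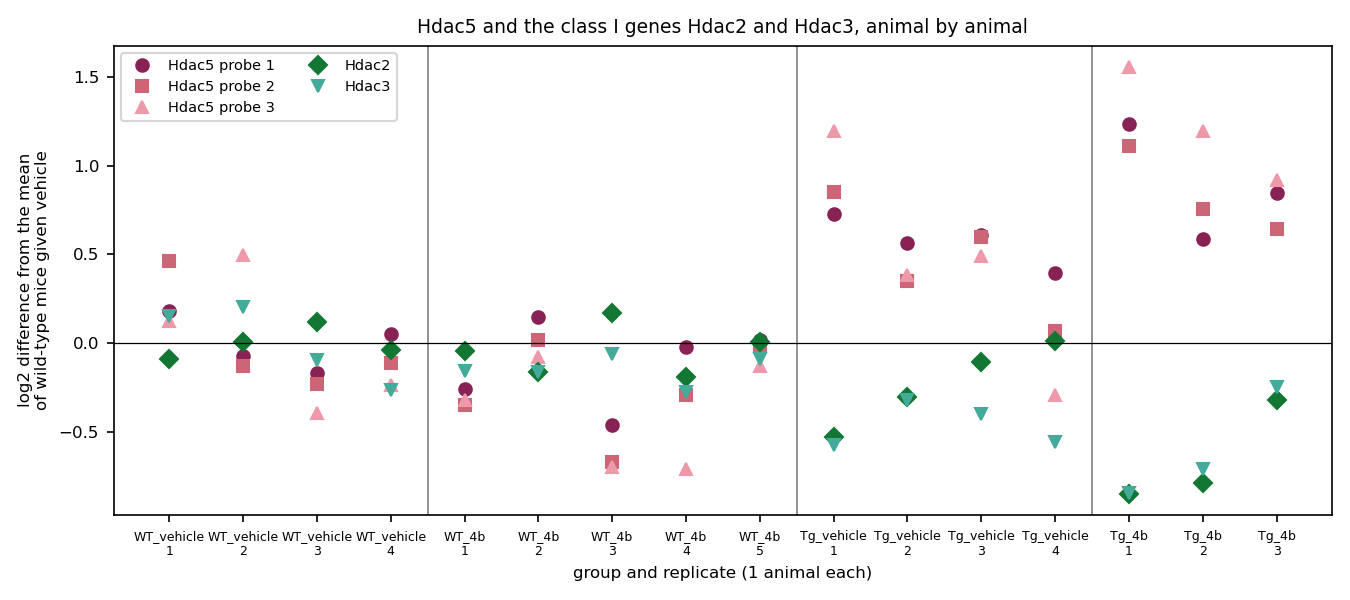
Log2 difference of each animal from the wild-type mean with vehicle (vertical axis) for the 3 Hdac5 probes, Hdac2 and Hdac3, with animals along the horizontal axis by group and replicate. All 3 Hdac5 probes lie above 0 in 6 of 7 transgenic animals, and Hdac2 and Hdac3 lie lowest in replicates 1 and 2 of the transgenic mice given 4b.

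Hdac5 is also the member whose promoter is shown in full, since it rose in every transgenic animal on probe 1. RefSeq's start of Hdac5 lies on the minus strand of chromosome 11, and the 300 bases around it, from 250 before to 50 after the start, are chr11:102230123-102230422 in GRCm38.p6. Beside it stand the promoters of Hdac2, which fell, and Hdac11, which rose, at chr10:36974294-36974593 and chr6:91156565-91156864, both on the plus strand. Capitals mark matches, on either strand, to the MEF2 motif, to CACGTG (E-box), to TGACGT (the core of a cAMP response element) and to GGGCGG (GC box), which reads CCGCCC where it lies on the other strand.
Hdac5: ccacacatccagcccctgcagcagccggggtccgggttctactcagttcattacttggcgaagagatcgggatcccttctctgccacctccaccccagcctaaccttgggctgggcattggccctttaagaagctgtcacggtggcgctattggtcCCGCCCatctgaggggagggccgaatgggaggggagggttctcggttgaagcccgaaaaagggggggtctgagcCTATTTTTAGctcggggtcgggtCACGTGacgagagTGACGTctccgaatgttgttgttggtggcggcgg
Hdac2: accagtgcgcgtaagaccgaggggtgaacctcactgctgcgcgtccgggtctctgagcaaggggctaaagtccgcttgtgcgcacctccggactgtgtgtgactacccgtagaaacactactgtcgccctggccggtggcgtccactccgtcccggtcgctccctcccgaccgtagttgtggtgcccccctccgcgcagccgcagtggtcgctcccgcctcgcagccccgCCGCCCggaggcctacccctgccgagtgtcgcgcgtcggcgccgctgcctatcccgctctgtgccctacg
Hdac11: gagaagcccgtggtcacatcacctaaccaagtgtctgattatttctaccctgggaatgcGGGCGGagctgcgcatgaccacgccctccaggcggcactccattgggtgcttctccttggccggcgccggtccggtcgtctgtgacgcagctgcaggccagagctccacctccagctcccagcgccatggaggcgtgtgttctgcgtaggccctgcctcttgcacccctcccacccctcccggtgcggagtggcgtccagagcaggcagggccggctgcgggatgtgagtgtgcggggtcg
The Hdac5 window held the MEF2 motif once, from -20 to -11 relative to the start, CACGTG once from 4 to 9 and TGACGT once from 17 to 22. Of 32851 promoters of the same length, 3.19% held the MEF2 motif, 7.15% held CACGTG, 7.51% held TGACGT and 35.7% held GGGCGG. Hdac2 and Hdac11 held GGGCGG once each and 0 of the other motifs. The windows of Hdac6 and Hdac8, called genes with dim probes and not printed, held GGGCGG 5 and 0 times and 0 of the other motifs. The motifs were chosen with these windows in view, none overlaps another in them, and the matches are descriptions of sequence with no test of binding. Promoter windows were examined for 7 of the 10 genes, and Hdac3 was not among them.

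Of the 4 class I genes, 3 fell averaged over treatments, where 14.3% of all probes fell, and Hdac1 did not pass. With median scaling 0 of these 3 falls were called. Hdac2, the partner of Hdac1 in the Sin3 and NuRD complexes, read 11.68, 11.77, 11.88 and 11.73 in wild-type mice given vehicle and 11.72, 11.60, 11.93, 11.57 and 11.77 in those given 4b. It read 11.24, 11.46, 11.66 and 11.78 in transgenic mice given vehicle and 10.92, 10.98 and 11.44 in those given 4b. The wild-type animals lay close together, and the low values were those of replicate 1 of transgenic mice given vehicle and of the transgenic mice given 4b. Averaged over treatments Hdac2 fell by 0.42 ± 0.11 log2 units (SE; limma adjusted p = 0.0094).

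Hdac3, the catalytic subunit of the NCoR and SMRT complexes, read 11.85, 11.90, 11.60 and 11.43 in wild-type mice given vehicle and 11.54, 11.53, 11.64, 11.42 and 11.61 in those given 4b. It read 11.12, 11.38, 11.30 and 11.14 in transgenic mice given vehicle and 10.85, 10.99 and 11.45 in those given 4b. With vehicle the genotypes did not overlap, and with 4b only replicate 3 of the transgenic mice reached the wild-type range. Averaged over treatments Hdac3 fell by 0.46 ± 0.11 (SE; limma adjusted p = 0.0050). Before normalization the means of the 4 groups, in the same order, were 3142, 2894, 2658 and 2788, a smaller spread. With vehicle the genotypes then overlapped, at 2887 to 3439 in wild-type and 2528 to 2904 in transgenic mice.

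Hdac8, the cohesin deacetylase, read 5.94, 5.90, 5.88 and 5.15, then 5.40, 5.51, 5.64, 5.67 and 5.67 in wild-type mice given vehicle and 4b. It read 4.83, 5.42, 5.25 and 5.31, then 5.07, 5.09 and 5.69 in transgenic mice. Its averaged fall of 0.40 ± 0.14 (SE; limma adjusted p = 0.042) was near the detection limit, with mean deposited intensities of 146.2, 144.5, 141.4 and 145.8 in the 4 groups. The falls of Hdac2, Hdac3 and Hdac8 depended on the scaling. With median scaling the 3 averaged differences were -0.35, -0.38 and -0.35, with limma adjusted p of 0.051, 0.097 and 0.078, and 0 class I calls were left. The Hdac8 call was the least stable: it was lost in 22 of 31 alternatives, with a difference of -0.15 without background correction (limma adjusted p = 0.075). Leaving out 1 animal ended it in 11 cases (limma adjusted p 0.053 to 0.112), namely replicates 1, 2 and 3 of wild-type mice given vehicle, 2, 3, 4 and 5 of those given 4b, 1 and 3 of transgenic mice given vehicle and 1 and 2 of those given 4b. Hdac1 did not pass the averaged test (-0.21 ± 0.14, adjusted p = 0.279).

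Of the remaining class II genes, Hdac6 probe 1 read 5.33, 5.08, 5.31 and 5.42 in wild-type mice given vehicle and 5.09, 4.91, 5.60, 5.24 and 5.04 in those given 4b. It read 6.13, 5.69, 6.03 and 5.13 in transgenic mice given vehicle and 5.88, 6.51 and 5.79 in those given 4b, so that 6 of 7 transgenic animals lay above all wild-type animals. The averaged difference was 0.67 ± 0.16 (SE; limma adjusted p = 0.0052), and 0.25 without background correction. Its size is uncertain, since 1 of 4 and 1 of 5 wild-type arrays detected the probe. The filter kept it only through the transgenic mice, where it reads higher, so this difference is given as a description. Hdac6 probe 2 differed by 0.10 ± 0.15 (adjusted p = 0.666), so the 2 probes of this gene disagree and both are dim. Hdac10, the polyamine deacetylase, read 6.88, 6.53, 6.81 and 6.24 in wild-type mice given vehicle and between 5.58 and 6.52 in the other 12 animals. Its averaged difference of -0.37 ± 0.14 missed the threshold (limma adjusted p = 0.056). Hdac4 (-0.15 ± 0.16) and Hdac7 (-0.16 ± 0.14), class IIa genes like Hdac5, did not pass.

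Hdac11 read 6.46, 5.90, 6.32 and 5.45 in wild-type mice given vehicle and 6.09, 6.34, 6.01, 6.05 and 6.07 in those given 4b. It read 7.19, 7.13, 6.64 and 5.96 in transgenic mice given vehicle and 6.13, 7.45 and 6.83 in those given 4b. In 5 of 7 transgenic animals Hdac11 was above all wild-type animals, and replicate 4 with vehicle and replicate 1 with 4b lay within the wild-type range. The averaged rise was 0.70 ± 0.22 (SE; limma adjusted p = 0.023). Its size is uncertain, since mean deposited intensities were low, at 160, 167, 225 and 235 in the same order of groups. Replicates 2 and 4 of wild-type mice given vehicle had detection p-values of 0.034 and 0.031. In the authors' log2 values Hdac11 ran from 7.18 to 7.57 in wild-type and from 7.36 to 8.12 in transgenic mice, a narrower spread. The call was lost without replicate 1 of the transgenic mice given vehicle (0.62, limma adjusted p = 0.051), without replicate 2 of those given 4b (0.53, adjusted p = 0.082) and without the 2 animals numbered in 3 digits (0.68, adjusted p = 0.056).

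Split by treatment, the genotype difference was called for 0 of 13 probes in mice given vehicle, where 5.28% of all probes were called, 44.8% of them rises (60.5% with median scaling). At an unadjusted p under 0.05 the limma test gave 6 of the 13 probes and 2844 of all probes. Hdac5 probe 1 (0.57 ± 0.17, limma adjusted p = 0.060) and Hdac3 (-0.46 ± 0.15, adjusted p = 0.091) were the 2 members whose arrays did not overlap, where 12.4% of all probes did not overlap. For Hdac3 this held only after normalization. Leaving out replicate 1 of the transgenic mice given 4b, an animal of neither group compared, gave Hdac5 probe 1 an adjusted p of 0.044. Leaving out replicate 4 of the wild-type mice given vehicle or replicate 4 of the transgenic mice given vehicle gave 1 call in each case, Hdac8 (-0.69) and Hdac10 (-0.70).

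In mice given 4b, 7 of 13 probes, for 5 genes, were called, where 27.4% of all probes were called (15.6% higher, 11.8% lower). Rises made up 57.0% of all calls in this comparison, and 70.7% with median scaling. Hdac5 rose by 1.0 ± 0.17 on probe 1 (SE; limma adjusted p = 0.0011), by 1.10 ± 0.22 on probe 2 (adjusted p = 0.0023) and by 1.61 ± 0.29 on probe 3 (adjusted p = 0.0014), which is 2.0-fold, 2.14-fold and 3.05-fold. For Hdac5 probe 3 the mean deposited intensities were 179 in wild-type and 391 in transgenic mice given 4b. Its authors' log2 values ran from 7.38 to 7.66 and from 8.24 to 8.69, a smaller difference. Hdac6 probe 1, detected on 1 of 5 wild-type arrays here, differed by 0.88 ± 0.23 (limma adjusted p = 0.011), and by 0.33 in the authors' log2 values. The count of 7 includes this Hdac6 probe, which the filter kept only through the transgenic mice. Of the 4 class I genes 3 fell, Hdac2 by 0.61 ± 0.16 (limma adjusted p = 0.011), Hdac3 by 0.45 ± 0.16 (adjusted p = 0.042) and Hdac1 by 0.57 ± 0.21 (adjusted p = 0.0497). Hdac8 differed by -0.30 (limma adjusted p = 0.310). The arrays did not overlap for the 3 Hdac5 probes, Hdac6 probe 1, Hdac1 and Hdac2, where 30.6% of all probes did not overlap. Before normalization Hdac1 did overlap, with intensities of 303 to 562 in wild-type and 330 to 367 in transgenic mice. So did Hdac2, with 2980 to 3803 and 2461 to 3388. Without replicate 2 of the transgenic mice given 4b, 3 of the 7 calls were left, those of Hdac5. With median scaling the Hdac1, Hdac2 and Hdac3 differences were -0.42, -0.40 and -0.24 and none was called. The Hdac1 call was lost in 18 of 33 alternatives and the Hdac3 call in 15. For Hdac1 these include leaving out replicate 2 or 3 of wild-type mice given vehicle, 1, 3 or 4 of those given 4b, 1 or 3 of transgenic mice given vehicle and any of those given 4b (limma adjusted p 0.054 to 0.135). For Hdac3 they include replicate 3 of either group given vehicle, replicates 1, 2, 3 and 5 of wild-type and 1 and 2 of transgenic mice given 4b (limma adjusted p 0.051 to 0.204). The Hdac2 call was also lost without replicate 1 of the transgenic mice given 4b (limma adjusted p = 0.067).

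**Figure D3:**
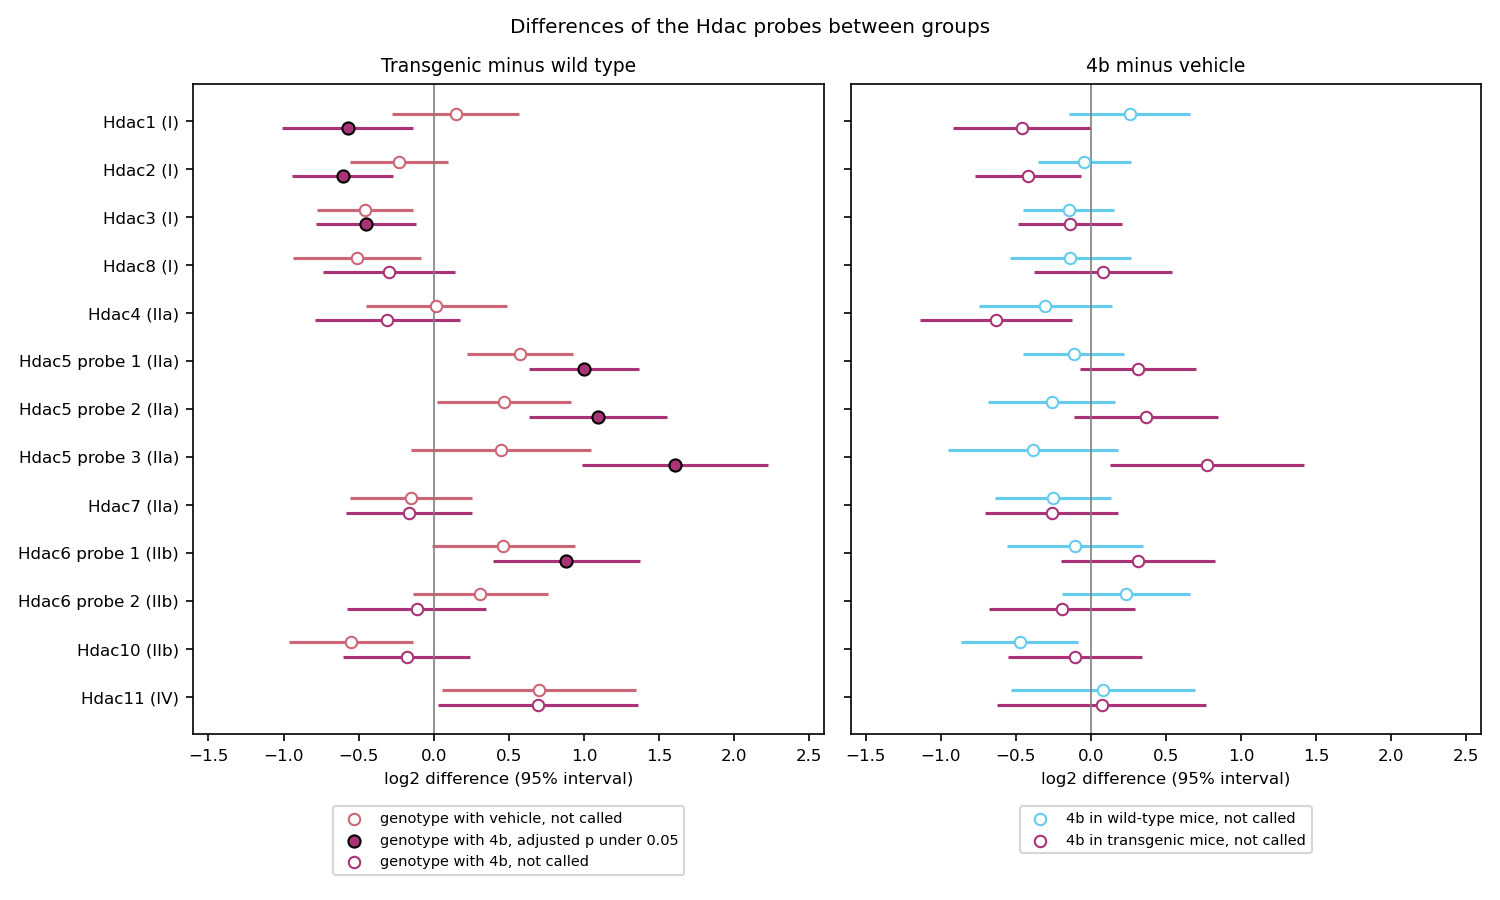
Log2 differences with 95% intervals (horizontal axis) of the 13 Hdac probes, with the class in brackets. The left panel gives transgenic minus wild type in mice given vehicle and in mice given 4b, and the right panel gives 4b minus vehicle in wild-type and in transgenic mice. Filled points passed an adjusted p under 0.05. All 7 filled points belong to the genotype difference in mice given 4b.

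Hdac1 was low and closely grouped in the transgenic mice given 4b, at 7.75, 7.72 and 7.77. It read 7.67, 8.01, 7.98 and 8.56 in wild-type mice given vehicle, 8.69, 8.05, 8.36, 8.44 and 8.04 in those given 4b, and 8.12, 7.86, 8.36 and 8.47 in transgenic mice given vehicle. In each of these 3 groups the animal with the highest lymphocyte score also had the highest Hdac1, with scores of 2.39, 2.61 and 3.45. The same animals had the highest adipocyte marker scores of their groups, at 1.70, 1.59 and 0.31. Within groups Hdac1 had a Pearson's r of 0.78 with either score, so the 2 cannot be told apart here. In the transgenic mice given 4b, replicates 1 and 2 had lymphocyte scores of 1.26 and 0.92 and Hdac1 no higher than replicate 3, whose lymphocyte score was -1.03. With the lymphocyte score as a covariate, the Hdac1 difference between genotypes in mice given 4b was still called. The part of lymphocyte RNA in the Hdac1 values was not tested further. Without the 6 arrays of high score, Hdac1 differed by -0.41 in that comparison. This choice was made after seeing the data and leaves 1 transgenic animal given 4b.

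The same 10 arrays gave Hdac5 probe 1 an averaged genotype difference of 0.74 (limma adjusted p = 0.013) and probe 3 one of 0.92 (adjusted p = 0.044), both called. Probe 2, at 0.66, was not (adjusted p = 0.053). In mice given 4b the 3 differences were 0.81, 0.75 and 1.23 there and were not called. The fibroblast and matrix score moved with genotype, and the lowest wild-type score (-0.77) lay just under the highest transgenic one (-0.52). With that score as a covariate, also chosen after seeing the data, 0 of 13 probes were called averaged over treatments, among 12 calls over all probes. Hdac5 probe 1 differed by 0.65 there, but probe 2 by 0.23, probe 3 by 0.036 and Hdac11 by 0.072. With the fast muscle score as a covariate 0 of 13 probes were called among 54. The Hdac5 differences were then 0.65, 0.48 and 0.39, that of Hdac2 was -0.077 and that of Hdac8 was 0.053. The part of these markers in the Hdac differences was not tested further.

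**Figure D4:**
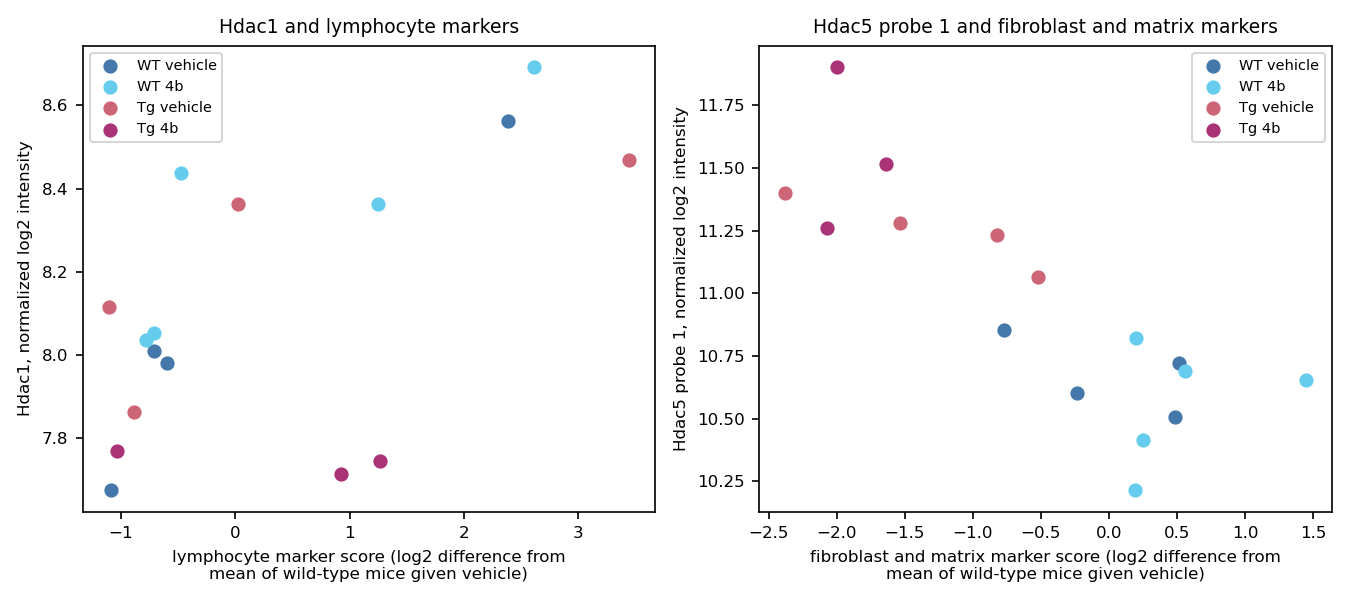
Normalized log2 intensity of Hdac1 against the lymphocyte marker score (left) and of Hdac5 probe 1 against the fibroblast and matrix marker score (right), with 1 point per animal coloured by group. Scores are mean log2 differences from wild-type mice given vehicle. The highest Hdac1 values lie at high lymphocyte scores except in transgenic mice given 4b, and the 2 genotypes meet on the right between scores of -0.77 and -0.52.

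The second question was whether 4b changed the RNA of its own targets. In wild-type mice 0 of 13 probes were called, as were 0% of all probes, and at an unadjusted p under 0.05 limma gave 1 of the 13 and 364 of all probes. Hdac1 and Hdac3, the enzymes that 4b is known to prefer, differed by 0.26 (95% interval -0.14 to 0.66) and -0.15 (-0.45 to 0.16). The 1 member was Hdac10, which read 6.88, 6.53, 6.81 and 6.24 with vehicle and 6.10, 6.14, 6.02, 6.19 and 6.25 with 4b. Its difference of -0.47 ± 0.18 had a limma adjusted p of 0.9998, and the groups overlapped by 1 animal.

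In transgenic mice 4b against vehicle also gave 0 of 13 calls, as did 0% of all probes, with 4 of the 13 and 1959 of all probes at an unadjusted limma p under 0.05. Hdac4 read 8.84, 9.49, 9.17 and 8.55 with vehicle and 8.13, 8.19 and 8.84 with 4b, a difference of -0.63 ± 0.24 (limma adjusted p = 0.262). Hdac5 probe 3 differed by 0.78 ± 0.30 (adjusted p = 0.270), Hdac2 by -0.42 ± 0.17 (adjusted p = 0.272) and Hdac1 by -0.46 ± 0.22 (adjusted p = 0.349). For Hdac4 and Hdac2 the values of replicates 1 and 2 given 4b lay below all vehicle animals and replicate 3 lay among them. Hdac1 was the only member whose arrays did not overlap, where 8.33% of all probes did not. Before normalization its arrays overlapped, at 360 to 542 with vehicle and 330 to 367 with 4b. Without replicate 3 given 4b, 466 of all probes were called, and without replicate 1 given vehicle 404 were, with 0 Hdac probes in both cases. Hdac3 differed by -0.14 (95% interval -0.48 to 0.21) and Hdac8 by 0.08 (-0.38 to 0.54).

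The difference between the 4b effects of the 2 genotypes was tested as an interaction and called for 0 of 13 probes and for 0% of all probes. At an unadjusted limma p under 0.05 it gave 2 of the 13 and 1344 of all probes. These were Hdac5 probe 3 (1.16 ± 0.40, limma adjusted p = 0.471) and Hdac1 (-0.72 ± 0.29, adjusted p = 0.477). The larger counts for genotype in mice given 4b than in mice given vehicle therefore do not show a different genotype effect under 4b.

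The partners of these enzymes were taken from lists written by complex and pathway, with 1 probe per gene. Averaged over treatments 53 of the 107 tested genes (49.5%) were called, 37 higher and 16 lower, where 32.2% of all probes were called, 17.9% higher and 14.3% lower. These shares are not like for like. Each list gene was read on its brightest probe, and the share over all probes includes dim and further probes. With median scaling 47 of the 53 were still called in the same direction, and without the 6 arrays of high lymphocyte score 22 were. With the fibroblast and matrix score as a covariate 0 were, and with the fast muscle score 2 were. In the Sin3 complex, the scaffold of Hdac1 and Hdac2, 6 of 10 tested genes rose and 1 fell averaged over treatments, with a list median of 0.49. Ing1, a reader of histone methylation, rose by 1.30 ± 0.18 (SE; limma adjusted p = 0.000125). Its relative Ing2 fell by 1.52 ± 0.19 (adjusted p = 6.78e-05), and the scaffold Sin3a rose by 0.60 ± 0.11 (adjusted p = 0.0010). Ing1 and Ing2 were also called in mice given vehicle (1.02 and -1.67). In the NuRD complex 5 of 7 rose and 1 fell, with a median of 0.54: the remodeller Chd4 rose by 0.87 ± 0.13 (limma adjusted p = 0.00020), and Mbd3, the methyl-binding domain subunit, fell by 0.47 ± 0.13 (adjusted p = 0.013). With median scaling the counts were 6 and 1 of 10 for Sin3 and 5 and 0 of 7 for NuRD, without Mbd3 (-0.34, limma adjusted p = 0.122).

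In the CoREST and MiDAC complexes the called share was near the 32.2% of all probes: 2 of 6 rose and 0 fell, the demethylase Kdm1a by 0.55 ± 0.11 and Dnttip1 of MiDAC by 0.73 ± 0.13 (limma adjusted p = 0.0018 and 0.00082). Of the NCoR and SMRT list, the partners of Hdac3, 4 of 6 genes were tested and 1 rose, Tbl1xr1, by 0.70 ± 0.11 (limma adjusted p = 0.00032). For Hdac8, 2 of 7 cohesin genes rose and 1 fell. Its substrate Smc3 rose by 0.55 ± 0.16 and the cohesin loader Nipbl by 0.58 ± 0.13, while Pds5b fell by 0.55 ± 0.13 (limma adjusted p = 0.018, 0.0027 and 0.0053).

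**Figure D5:**
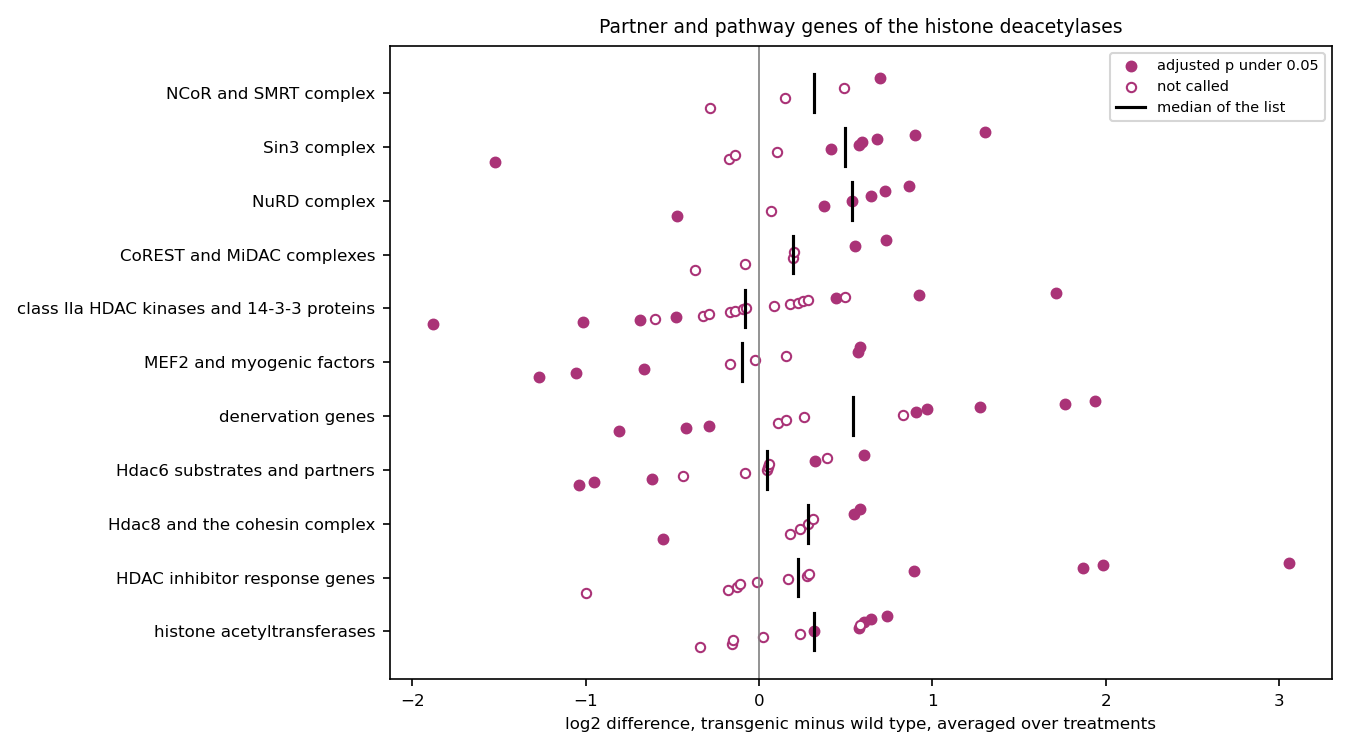
Log2 difference between transgenic and wild-type mice, averaged over treatments (horizontal axis), for the partner and pathway genes of the histone deacetylases, with 1 row of points per list and 1 point per gene. Filled points passed an adjusted p under 0.05 and black bars give the list medians, which run from -0.10 for MEF2 and myogenic factors to 0.54 for NuRD and for denervation genes.

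Of 20 kinases and 14-3-3 proteins of class IIa enzymes, 3 rose and 4 fell, also a share near the 32.2% called over all probes, with a list median of -0.08 that was 0.025 with median scaling. Camk2a fell by 1.88 ± 0.19 and Camk1 by 1.02 ± 0.15, while Camk2d rose by 0.92 ± 0.18 and Sik1 by 1.72 ± 0.37 (limma adjusted p = 1.99e-05, 0.00027, 0.0017 and 0.0029). All 4 phosphorylate class IIa enzymes or belong to kinase families that do. Camk2a (-1.65), Camk1 (-0.78) and Camk2d (0.93) were called in mice given vehicle as well. Of 8 tested MEF2 and myogenic factors, 2 rose and 3 fell averaged over treatments, where 17.9% of all probes rose and 14.3% fell. Mef2c, a transcription factor that Hdac4 and Hdac5 bind, fell by 1.27 ± 0.14 (limma adjusted p = 4.42e-05), and Mef2b, of the same family, rose by 0.58 ± 0.17 (adjusted p = 0.019). Myod1 fell by 1.06 ± 0.34 and Myf6 by 0.66 ± 0.22 (limma adjusted p = 0.027 and 0.030), both of them myogenic factors, and Myf6 was not called with median scaling (-0.62, limma adjusted p = 0.101). Split by treatment, 0 of these 8 factors were called between the genotypes in mice given vehicle. In mice given 4b, Mef2b rose and 3 fell, namely Mef2c, Myod1 and Myf6. The interaction was called for 0 of the 8.

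Of 12 tested denervation genes, 5 rose and 3 fell, where 17.9% of all probes rose and 14.3% fell. The list median was 0.54. The acetylcholine receptor subunit Chrna1 rose by 1.94 ± 0.24, the synaptic kinase Musk by 1.76 ± 0.30 and Gadd45a, a stress gene downstream of Hdac4, by 1.27 ± 0.17 (limma adjusted p = 8.57e-05, 0.00059 and 0.00013). These 3 were also called in mice given vehicle (2.13, 1.69 and 1.32). The adult receptor subunit Chrne fell by 0.81 ± 0.23 (limma adjusted p = 0.014). Myogenin (Myog), which stands between Hdac4 or Hdac5 and the acetylcholine receptor genes, differed by 0.16 ± 0.26 (limma adjusted p = 0.687) and is named here after its value was seen. Fast muscle markers, of which 3 of 11 fell and 0 rose, moved with the same comparison.

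For Hdac6, 2 of 11 substrates and partners rose and 3 fell, where 17.9% of all probes rose and 14.3% fell. The tubulin Tuba1a fell by 1.04 ± 0.22 and Tuba4a by 0.95 ± 0.26, and the ubiquitin-binding Plaa rose by 0.61 ± 0.14 (limma adjusted p = 0.0026, 0.012 and 0.0033). Of the opposing enzymes, 5 of 11 histone acetyltransferases rose, where 17.9% of all probes did, and 0 fell, among them Kat2b by 0.65 ± 0.15 and Ncoa1 by 0.74 ± 0.13 (limma adjusted p = 0.0049 and 0.00077). Of 12 genes known to respond to inhibitors of class I enzymes, 4 rose and 0 fell between the genotypes. Their called share was near the 32.2% of all probes. The risen genes were Cdkn1a, an inhibitor of the cell cycle, by 3.06 ± 0.45, the metallothioneins Mt1 by 1.98 ± 0.29 and Mt2 by 1.87 ± 0.34, and Tspyl2 by 0.89 ± 0.20 (limma adjusted p = 0.00022, 0.00022, 0.00082 and 0.0038). Split by treatment, 1 of the 12 rose between the genotypes in mice given vehicle and 4 in mice given 4b, where Cdkn1a differed by 4.39 ± 0.65. The interaction was called for 0 of the 12. With 4b against vehicle, 0 of these 12 genes were called in wild-type or in transgenic mice. The list medians were 0.05 and 0.33 there, beside -0.03 and -0.01 over all probes. The same 2 tests called 0 genes of every other list named here, and Mef2c in transgenic mice came nearest (-1.38 ± 0.22, limma adjusted p = 0.063).

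Probes most like the members across the 16 arrays were ranked by Pearson's r, given as a description since the arrays share groups and normalization. Nearest to Hdac5 were Fam13c (r = 0.95) for probe 1, Kif1b (0.97) for probe 2 and Noc4l (0.96) for probe 3, with no gene in common among the 3 nearest of each probe. Nearest to Hdac2 was Rnf11 (0.96) and nearest to Hdac3 was Mmgt1 (0.96). Hdac1 was less closely followed, with Gsta3 nearest (0.87). For the dim probes the nearest were Kyat3 (0.93) for Hdac6 probe 1 and Tirap (0.89) for Hdac8. Nearest to Hdac11 was Ino80 (0.91).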

How the data were processed

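Total RNA was labelled with biotin and hybridised to Illumina bead arrays, 1 per animal, per the labels' protocols. The deposited values are linear probe intensities, not normalized per the file headers. Beside each stands a deposited detection p-value, whose calculation the sources used here do not give. The authors' own normalized log2 values, deposited separately, kept the order of the intensities on every array (lowest Spearman correlation 1) and served as an alternative.

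Background was removed by the normexp model of limma 3.58.1 (R 4.3.3), estimated from the detection p-values, with 16 added, before quantile normalization and log2. The offset compresses differences of dim probes, and quantile normalization hides a shift shared by most probes. Kept were 13706 of 25697 probes, those with 3 or more arrays at a detection p-value under 0.05; an array detected 42.7% to 50.3% of its probes. A model of 4 group means over 16 arrays (residual degrees of freedom 12, prior 3.35) gave two-sided contrasts, with Benjamini-Hochberg adjustment over all 13706 probes and calls at an adjusted p under 0.05. The number of animals sets the precision. Of all probes, 23978 carried 1 symbol in the platform annotation, 0 several and 1719 none. Promoters came from RefSeq (GRCm38.p6). For list genes the probe with the highest mean was used.

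The members and lists were chosen with earlier results of these data known. Every member probe is given. Of each list the called genes are named, at most 4 by smallest p, and for each called member the most alike probes by Pearson correlation. The fit was tested on simulated data.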

Additional observations from a re-analysis of the deposited data

Results flagged for a closer look

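In 4 cases 1 animal lay far from the rest of its group by Dixon's ratio, which chance passes in about 1 of 20 groups of 4 or 5 animals. Hdac8 read 5.15 in replicate 4 of the wild-type mice given vehicle, against 5.88 to 5.94 in the others. Hdac5 probe 2 read 10.18 in replicate 1 of the same group, against 9.49 to 9.61. Hdac6 probe 2 read 5.74 in replicate 5 of the wild-type mice given 4b, against 5.41 to 5.50. Hdac11 read 6.34 in replicate 2 of that group, against 6.01 to 6.09.

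For Hdac5 probe 3 the effect of 4b had opposite signs in the 2 genotypes. The difference was 0.78 in transgenic mice, with all 3 animals above the mean of their vehicle group, and -0.38 in wild-type mice, with all 5 below theirs. The interaction of 1.16 ± 0.40 did not pass (limma adjusted p = 0.471).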

How the results depend on the processing

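Each count of called Hdac probes was recomputed under 33 alternatives (32 for the averaged and interaction contrasts), 16 of which left out 1 animal each. The authors' log2 values gave the same differences as no background correction for Hdac3, Hdac5 probe 1 and Hdac8. These 2 alternatives are both counted but are not separate checks. For genotype with vehicle, where 0 probes were called, the count was 2 with no background correction, 2 with the authors' log2 values, 2 with array weights, 3 with the detected share as a covariate, 4 without the 6 arrays of high lymphocyte score, and 1 each with an offset of 50, with the lymphocyte score as a covariate and with a trended prior. Leaving out 1 animal gave 0 to 1. For genotype with 4b, where 7 were called, it was 4 with median scaling, 11 with array weights, and 0 with the fast muscle score as a covariate, with the fibroblast and matrix score as a covariate and without the 6 arrays. Leaving out 1 animal gave 3 to 7. For genotype averaged over treatments, where 8 were called, it was 5 with median scaling, 4 without the 6 arrays and 0 with either of these muscle and matrix covariates; leaving out 1 animal gave 6 to 9. For 4b in transgenic mice, array weights gave 3 calls, and all other alternatives gave 0. For 4b in wild-type mice and for the interaction every alternative gave 0. The calls over all probes moved too. For genotype with 4b they went from 3760 to 16 with the fast muscle score, 0 with the fibroblast and matrix score, 3 without the 6 arrays, 6228 with array weights and 2062 to 2064 without replicate 1 or 2 of the transgenic mice given 4b. For genotype averaged over treatments they went from 4409 to 54, 12 and 1570 with the first 3 of these. For genotype with vehicle they went from 724 to 24 and 29 with these covariates, 162 with only the 2 groups compared, 1359 with the detected share, 332 without the 2 animals numbered in 3 digits, and 257 to 441 without replicate 1, 2 or 3 of the wild-type or replicate 1 or 3 of the transgenic mice given vehicle. For 4b in transgenic mice they went from 0 to 2277 with array weights and to at most 11 under the other alternatives that kept all animals; for the interaction array weights gave 179 and leaving out replicate 3 of the transgenic mice given 4b gave 20. The cause of the other changes was not tested. The averaged Hdac8 difference reversed to 0.053 with the fast muscle score as a covariate. The Hdac5 calls were lost only with those 2 covariates and, in part, without the 6 arrays. With the order of deposit (first 8 and last 8 arrays) as a block, the calls of Hdac1 and Hdac3 with 4b (limma adjusted p = 0.070 and 0.052) and of Hdac8 averaged over treatments (adjusted p = 0.054) were lost. No paired analysis was possible because the labels give each animal its own number and the replicate numbers follow the order of deposit.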
